A study of Mus musculus with 6 samples.

Results

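The genes described are 10 regulators of apoptosis of the BCL-2 family: Bax, Bak1, Bcl2, Bcl2l1, Mcl1, Bcl2l11, Bbc3, Pmaip1, Bid and Bad. They were taken as all non-control probes that carry one of these gene names, which gave 22 of 56605 probes and 10 of 37318 genes. BCL-2 family proteins decide whether the outer mitochondrial membrane is opened to release cytochrome c. BAX and BAK form the pore, BCL-2, BCL-XL (encoded by Bcl2l1) and MCL-1 hold them in check, and the BH3-only proteins BIM (Bcl2l11), PUMA (Bbc3), NOXA (Pmaip1), BID and BAD set off the process or disarm the protective members. In the inner ear the family is known for its part in the death of hair cells and neurons after noise, drugs and ageing. Much of its control, such as the phosphorylation of BAD, the cleavage of BID and the movement of BAX to mitochondria, acts on the proteins and is not seen in RNA.

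Cochlear RNA of female C57BL/6 mice aged 6 weeks was measured on 6 one-colour arrays, 1 for each of 6 groups, with 6 mice a group by the design text. The sources used here do not say whether the mice of a group were pooled. The baseline group had neither noise nor injection. The noise-only group was exposed to intense noise for 2 h without injection, and its labels give no time after the noise. The other 4 groups had the same exposure, followed at once by an intraperitoneal dose, either saline or 10 mg/kg of the glucocorticoid drug dexamethasone, and were sampled 12 h or 24 h later. With 1 array a group, no difference between 2 groups has a replicate check and none is given a p-value. Both 12 h arrays lay on 1 slide and the other 4 arrays on another, so the slide cannot be told apart from the group when saline 12 h is set against baseline.

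Between 63.0% and 70.3% of probes were well above background on an array, and no spot was saturated. Of 9 hair cell markers, 8 were well above background on every array, and Slc26a5, the motor protein gene of outer hair cells, was not on any. All 7 markers of stria vascularis and spiral ligament were measured on each array. The dissected tissue also held RNA of marrow, muscle, cerebellum, epidermis and mucosal gland. Their marker levels differed between arrays and are given beside some of the results.

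Each member was read by 1 to 5 probes of 60 bases, and 4 of those from coding sequence are shown because their genes have further probes elsewhere that bear on the results. The Bax probe runs across a splice junction, since its ends lie 156 bp apart on the genome (chr7:52721469-52721624, minus strand, mm9). The Bcl2 probe lies at chr1:108608970-108609029 and the Bcl2l1 probe at chr2:152655185-152655244, both on the minus strand. The Bcl2l11 probe spans an intron, with its ends at chr2:127972893-127983988 on the plus strand.
Bax: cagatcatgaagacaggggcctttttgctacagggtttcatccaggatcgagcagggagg
Bcl2: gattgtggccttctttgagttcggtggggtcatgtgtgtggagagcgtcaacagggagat
Bcl2l1: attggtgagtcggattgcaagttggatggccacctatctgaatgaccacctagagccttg
Bcl2l11: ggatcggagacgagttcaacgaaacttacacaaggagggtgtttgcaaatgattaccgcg

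The 250 bases before the start of Bax, the member with the widest range over the arrays, are shown for their motifs (RefSeq, GRCm38.p6, chr7:45466899-45467148, minus strand). Capitals mark a match to the p53 half-site, which begins 201 bases before the start, and the E-box CACGTG, which begins 9 bases before it.
Bax promoter: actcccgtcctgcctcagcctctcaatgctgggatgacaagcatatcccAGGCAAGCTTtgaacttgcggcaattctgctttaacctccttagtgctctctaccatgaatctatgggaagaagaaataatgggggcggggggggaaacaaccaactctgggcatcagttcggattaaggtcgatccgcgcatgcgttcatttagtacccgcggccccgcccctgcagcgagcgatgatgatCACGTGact
The promoters of 9 members were searched on both strands, in 15 windows of 250 bases. The promoter of Pmaip1 was not searched, so nothing is said of its motifs. A p53 half-site was present in 1 of the 15, that of Bax, against 7.12% of 32536 such windows of all genes. CACGTG was present in 2 of the 15, of Bax and Bbc3 (6.04% of all windows), and the forkhead motif TGTTTAC in 2, of Bcl2l11 and Bbc3 (3.17% of all windows). The GC box GGGCGG was in 10 of the 15, of 7 genes (33.0% of all windows). The glucocorticoid receptor half-site TGTTCT was in 0 of the 15 (16.0% of all windows). None of the matches marked in the Bax window overlaps another searched motif. A match is a description of the letters only, and the motifs and sequences were chosen with the members' values known.

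Levels are given as log2 of the processed signal minus the 75th percentile of the array, so a level of 0 is that percentile itself. Where a gene has several probes, the one with the highest mean over the arrays stands for it unless others are named. Levels of different probes are not set against each other, because probes differ in their response. Intervals cover 1.96 times the spot error of the scanner software, and a difference whose interval leaves out 0 is called beyond the spot error. Of the 22 member probes, 19 were well above background on all 6 arrays, a Bcl2l11 probe was so on 5, and a further Bcl2l11 probe and a Bid probe on 0.

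**Figure D1:**
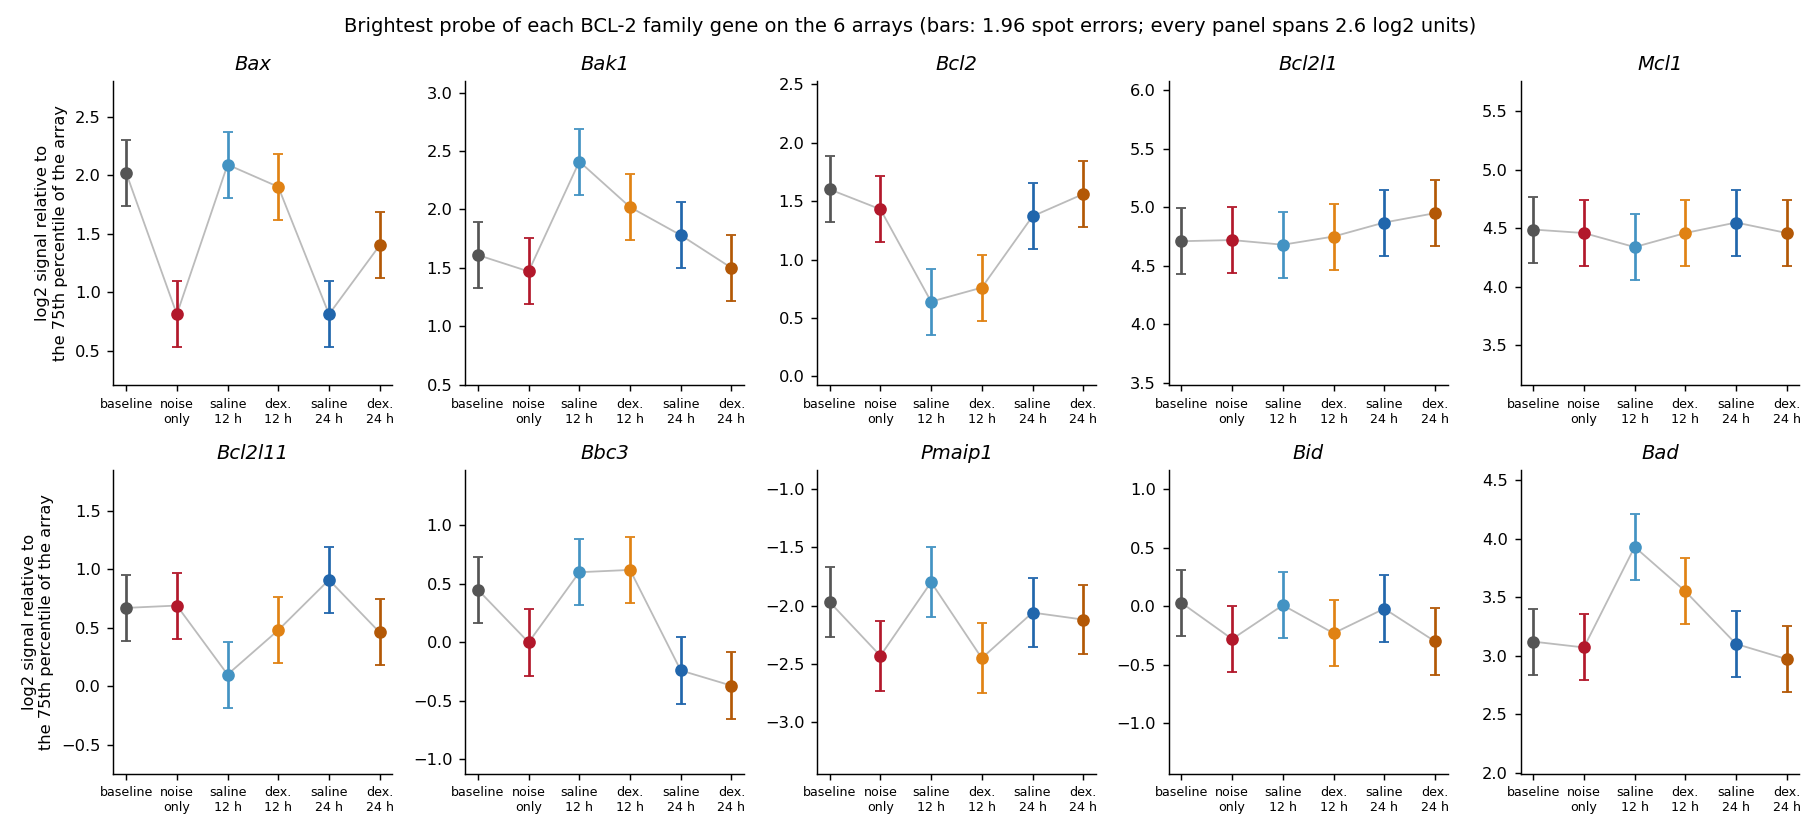
Log2 level of the representing probe of each of the 10 genes (vertical axis, relative to the 75th percentile of the array) on the 6 arrays (horizontal axis, 1 point per group), with bars of 1.96 spot errors and the same vertical span in each panel. Bax is low on the noise-only and saline 24 h arrays (0.81 on both) and high on baseline and both 12 h arrays (1.90 to 2.09), Bak1 and Bad are highest at 12 h, and Bcl2l1 and Mcl1 are nearly flat.

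Bax, which forms the mitochondrial pore, differed most. Its level was 2.02 at baseline, 0.81 after noise alone, 2.09 in saline 12 h, 1.90 in dexamethasone 12 h, 0.81 in saline 24 h and 1.40 in dexamethasone 24 h. On this representing probe the noise-only and saline 24 h arrays thus shared the lowest level. Baseline and both 12 h arrays formed a high group, and dexamethasone 24 h lay between them. After noise alone Bax was 2.31-fold lower than at baseline, a log2 difference of -1.21 (-1.61 to -0.81). In saline 24 h it was again 2.31-fold lower, with a difference of -1.21 and the same interval. In bulk tissue, fewer cells of a type and less RNA per cell cannot be told apart.

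The second Bax probe, the junction probe shown above, gave levels of 0.55, -0.71, 0.00, -0.09, -0.82 and -0.17 in the same order of groups. Unlike the first, it placed both 12 h arrays near dexamethasone 24 h and below baseline. Its differences from baseline were -1.26 (-1.66 to -0.86) after noise alone and -1.37 (-1.78 to -0.97) in saline 24 h. Both probes therefore placed Bax more than 2-fold below baseline on these 2 arrays. In saline 12 h the probes disagreed, with 0.07 for the first and -0.55 (-0.95 to -0.15) for the second. Spike-in scaling gave -0.75 for the first probe there. The part of the slide in these values was not tested.

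Bax was the sole member at least 2-fold from baseline on any of the 3 arrays. After noise alone 1 of 10 members was at least 2-fold lower, against 3.18% of all measured genes, with 5.82% of genes that far in either direction. In saline 24 h it was again 1 of 10, against 1.72% lower and 3.44% in either direction. In saline 12 h it was 0 of 10, against 3.42% lower and 7.84% in either direction. The range of Bax over the 6 arrays was 1.28, or 2.43-fold, and 13.0% of 22460 genes measured on every array had at least that range, with a median range of 0.63. A range of at least 2-fold was reached by 1 of 10 members and by 23.3% of those genes. The 3 comparisons share the baseline array, so a high Bax value on that array would lower them together.

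Dexamethasone and saline arrays were set side by side at each time, to show how the steroid arrays stood against their injected controls. At 24 h Bax was 1.5-fold higher with dexamethasone, a difference of 0.59 (0.19 to 0.99), and the second probe gave 0.65 (0.25 to 1.06). At 12 h the differences were -0.19 (-0.59 to 0.21) and -0.10 (-0.50 to 0.31). The higher value at 24 h still lay below baseline on both probes.

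Markers of other cells differed between the same arrays. In the noise-only array 8 of 8 proliferation markers were lower than baseline, with a median difference of -1.13, as were 8 of 8 neutrophil markers (median -1.04) and 7 of 7 measured B cell markers (median -1.26). In saline 24 h, where Bax was equally low, the proliferation markers had a median of -0.11, the neutrophil markers -0.67 and the B cell markers -0.49. With dexamethasone at 24 h, where Bax was higher than in saline, 8 of 8 proliferation markers were lower (median -1.10), as were 8 of 8 neutrophil markers (median -0.54). The summed signal of the 8 proliferation markers, in units of each array's 75th percentile, was 44.3 at baseline, 23.2 after noise alone, 48.7 in saline 12 h, 28.6 in dexamethasone 12 h, 43.6 in saline 24 h and 20.5 in dexamethasone 24 h. For the 8 neutrophil markers the sums were 901, 482, 1320, 1030, 660 and 512 in that order, and for the 8 B cell markers 25.3, 11.1, 29.1, 12.5, 18.9 and 15.8.

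Epidermal markers differed widely between arrays. Their sum over 6 genes was 20.6 at baseline, 2.46 after noise alone, 71.3 in saline 12 h, 50.7 in dexamethasone 12 h, 7.20 in saline 24 h and 2.87 in dexamethasone 24 h. Bax was higher in dexamethasone 24 h than in saline 24 h, while these markers were lower. Cerebellar markers summed to 10.8, 81.0, 65.4, 64.6, 17.3 and 10.1, and muscle markers to 107, 222, 417, 288, 234 and 146. Mucosal gland markers summed to 309, 232, 764, 1120, 198 and 174. For macrophage and monocyte markers the sums were 201, 143, 411, 463, 162 and 132, though their median in saline 12 h against baseline was -0.03. The epidermal genes Krt1 and Flg2, were not well above background in dexamethasone 24 h, and Flg2 not in noise only. Igll1, a B cell precursor gene, was not above background after noise alone. The part of these cells in the Bax levels was not tested.

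Il17ra, the receptor gene for interleukin 17A, had the pattern most like the representing Bax probe over the 6 arrays. Its Pearson r was 0.988, among 3483 genes of at least 2-fold range. Its levels were -1.69, -3.19, -1.82, -2.04, -3.01 and -2.53 in the order used above. Clic1, a chloride intracellular channel gene, followed at 0.983 with levels of 4.09, 2.80, 4.12, 3.95, 3.09 and 3.59. The odorant receptor gene Olfr1229 had 0.981. With 6 arrays such values are common, since the 51st gene in the order still had 0.881, and they are a description without a test. The other members had a range under 1 log2 unit, the minimum set for this search, Bbc3 by a narrow margin.

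**Figure D2:**
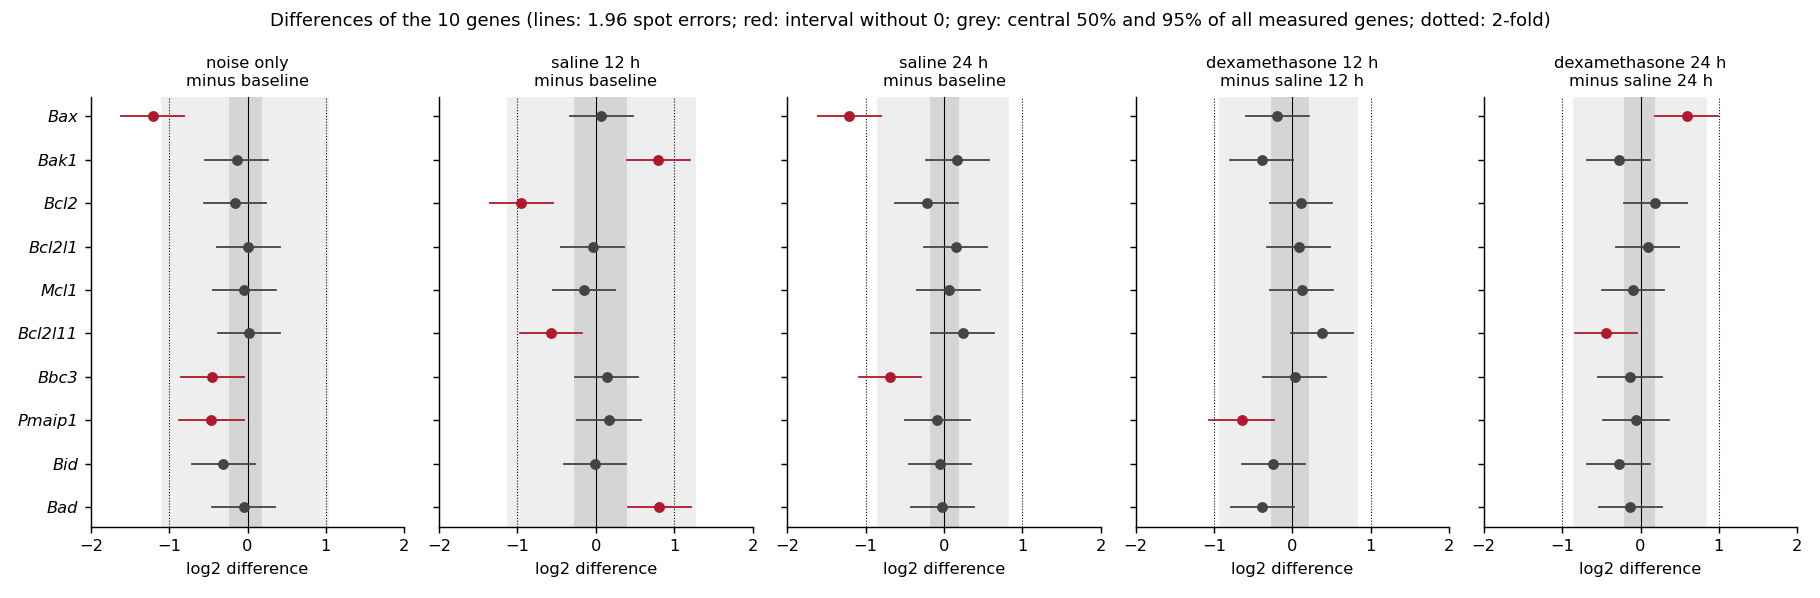
Log2 differences of the 10 genes (rows) in the 5 comparisons (panels), with lines of 1.96 spot errors, red where the interval leaves out 0, over the central 50% and 95% of all measured genes in grey. Bax lies outside the central 95% after noise alone and in saline 24 h (both -1.21), and the remaining points lie inside it.

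Bak1, the second pore-forming member, did not follow Bax. Its single probe read 1.61 at baseline, 1.47 after noise alone, 2.41 in saline 12 h, 2.02 in dexamethasone 12 h, 1.78 in saline 24 h and 1.5 in dexamethasone 24 h. Both 12 h arrays were the highest. Saline 12 h exceeded baseline by 0.80 (0.40 to 1.20), while scaling on spike-in probes in place of the percentile gave -0.02. That scaling moved the median of all genes in this comparison to -0.756, so against the other genes on the array Bak1 stayed higher. In the same comparison the medians were -1.16 for neuronal, 0.15 for proliferation, 2.04 for muscle, 2.78 for cerebellar and 4.14 for mucosal gland markers. The part of these cells in the saline 12 h values of Bak1, and of Bcl2 and Bad below, was not tested. Dexamethasone differed from saline by -0.39 (-0.79 to 0.01) at 12 h and by -0.28 (-0.68 to 0.12) at 24 h.

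Bcl2, the founding protective member, was lower than baseline with every probe on each of the 3 uninjected or saline arrays, though by very different amounts. The representing probe, at the far end of the gene (chr1:108434793-108434852, mm9), read 1.60, 1.43, 0.64, 0.76, 1.37 and 1.56 in the order used above. Its difference from baseline was -0.95 (-1.35 to -0.55) in saline 12 h, and -0.16 and -0.22 in the noise-only and saline 24 h arrays. The saline 12 h value of Bcl2 ran from -1.77, with spike-in scaling, to -0.53 over 8 settings. The coding probe read -0.09, -0.85, -0.67, -0.45, -0.79 and -0.58, so baseline was its highest array. It differed from baseline by -0.76 (-1.16 to -0.36) after noise alone, by -0.58 in saline 12 h and by -0.70 (-1.10 to -0.29) in saline 24 h. The third probe gave -0.19, -0.07 and -0.09. The sizes therefore differed between the Bcl2 probes on every array, and transcripts with different ends cannot be separated with these probes.

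Dexamethasone arrays had more Bcl2 signal than saline arrays with 3 of 3 probes at both times. At 12 h the differences were 0.11, 0.22 and 0.50, the last beyond the spot error (0.10 to 0.91). At 24 h they were 0.19, 0.21 and 0.18, each within it. The probes of a gene share the array and its RNA, so they are not replicates of the treatment.

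Bcl2l1, which encodes BCL-XL, was almost level. Its representing probe read 4.71, 4.72, 4.68, 4.75, 4.87 and 4.95, a range of 0.27, and 90.8% of genes had at least that range. The other 4 probes spread more in saline 12 h, where the 5 differences from baseline ran from -0.56 to 0.70. The probe overlapping the representing one gave -0.56 (-0.96 to -0.15) there, and a probe toward the start of the gene 0.70 (0.29 to 1.10). With dexamethasone at 24 h, 5 of 5 probes were higher than in saline, by 0.01 to 0.44. The coding probe shown above was the one beyond the spot error in that comparison, at 0.42 (0.01 to 0.83).

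Mcl1, a short-lived protective member, varied least. Its first probe read 4.49, 4.46, 4.34, 4.46, 4.55 and 4.46, and 96.1% of genes had at least its range of 0.21. The second probe read 3.96, 3.90, 3.93, 4.03, 4.03 and 3.97. No difference of either probe exceeded 0.15 in size in the 5 comparisons, and the intervals reached about 0.4 to each side. A change of up to that size could not be told from the spot error, which leaves out differences between mice and dissections.

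The change of Bax relative to the protective genes, each set against its own level in the other group, was taken from the representing probes. Relative to Bcl2 it was -1.05 (-1.61 to -0.48) after noise alone, 1.02 (0.45 to 1.59) in saline 12 h and -0.99 (-1.55 to -0.42) in saline 24 h. Relative to Bcl2l1 it was -1.22, 0.10 and -1.36, and relative to Mcl1 -1.17, 0.22 and -1.27. The representing probe of Bax itself differed by 0.07 in saline 12 h and that of Bcl2 by -0.95. The change relative to Bcl2 depends on the probes, since the second Bax probe and the coding Bcl2 probe differed from baseline by -0.55 and -0.58 in saline 12 h, by -1.26 and -0.76 after noise alone and by -1.37 and -0.70 in saline 24 h. With dexamethasone at 24 h the change was 0.40 (-0.16 to 0.97) relative to Bcl2, 0.50 (-0.06 to 1.07) relative to Bcl2l1 and 0.68 (0.12 to 1.25) relative to Mcl1, the last alone beyond the spot error. At 12 h it was -0.31, -0.27 and -0.31, each within it. These are differences in log2 and not ratios of molecules.

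**Figure D3:**
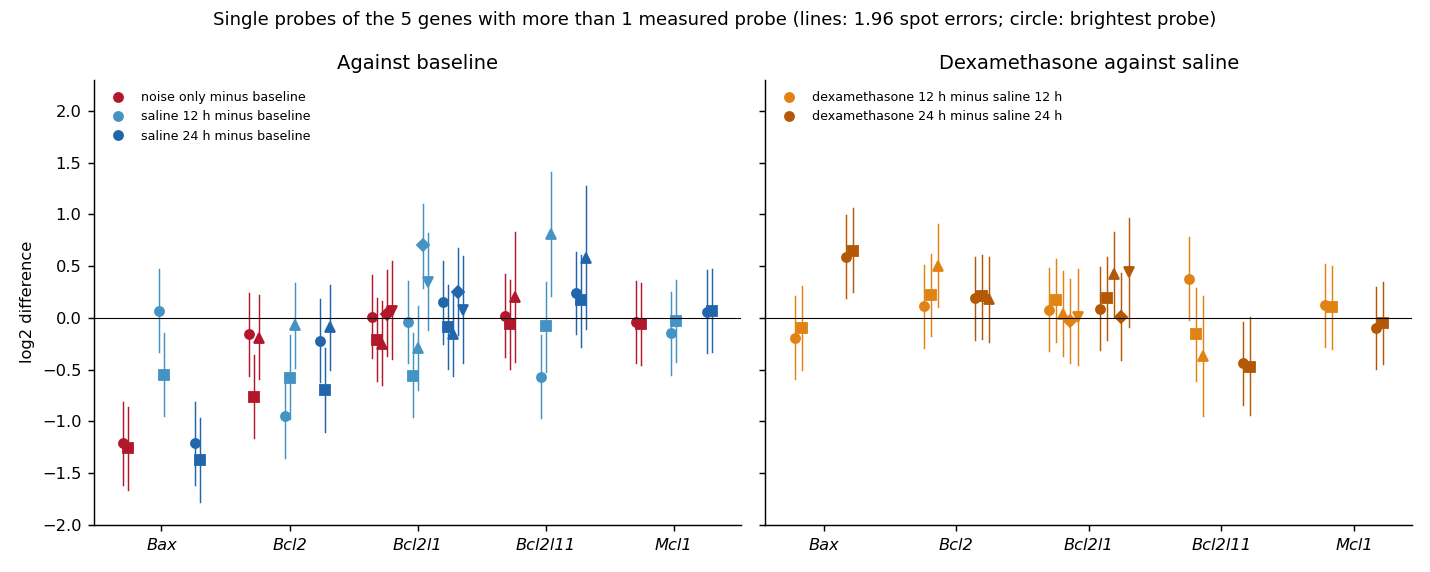
Log2 differences (vertical axis) of every measured probe of the 5 genes with more than 1 (horizontal axis), against baseline at left and dexamethasone against saline at right, with lines of 1.96 spot errors and circles for the representing probe. Both Bax probes lie at -1.21 to -1.37 after noise alone and in saline 24 h, and the probes of Bcl2, Bcl2l1 and Bcl2l11 spread widely in saline 12 h.

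Among the BH3-only genes, Bcl2l11, which encodes BIM, had the clearest contrast between injections at 24 h. Its representing probe read 0.67 at baseline, 0.69 after noise alone, 0.10 in saline 12 h, 0.48 in dexamethasone 12 h, 0.91 in saline 24 h and 0.46 in dexamethasone 24 h. Saline 24 h was the highest array and saline 12 h the lowest. At 24 h dexamethasone differed from saline by -0.44 (-0.84 to -0.04), and a second probe gave -0.47 (-0.94 to 0.01). The junction probe shown above was well above background in saline 24 h and not in dexamethasone 24 h. Against the dimmest detected probe of that array it was 1.64-fold lower, a value that leaves out the spot error. The interval of its own difference was wide, at -1.82 to -0.03, and its signal was near the floor.

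At 12 h the Bcl2l11 probes did not share a direction. Dexamethasone differed from saline by 0.38 (-0.02 to 0.78) with the representing probe, by -0.16 with the second and by -0.37 with the junction probe. In saline 12 h against baseline the same probes gave -0.57 (-0.97 to -0.17), -0.08 and 0.81 (0.21 to 1.41). Spike-in scaling gave -1.39 for the representing probe there. BIM transcripts have several isoforms and long untranslated ends, and these probes sample different parts of them. No single Bcl2l11 value stands for the gene at 12 h.

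Bbc3, which encodes the p53 target PUMA, was lower than baseline in the noise-only and both 24 h arrays. It read 0.45 at baseline, 0.00 after noise alone, 0.60 in saline 12 h, 0.62 in dexamethasone 12 h, -0.24 in saline 24 h and -0.37 in dexamethasone 24 h. Both 24 h arrays were the lowest and both 12 h arrays the highest. The difference from baseline was -0.45 (-0.85 to -0.05) after noise alone and -0.69 (-1.09 to -0.29) in saline 24 h. In saline 12 h it was 0.14 (-0.26 to 0.54), or -0.68 with spike-in scaling. Unlike Bax, it was not higher with dexamethasone at 24 h, where the difference was -0.13 (-0.54 to 0.27).

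Pmaip1, which encodes NOXA, read -1.97, -2.43, -1.80, -2.45, -2.06 and -2.12 in the order used above. The noise-only and dexamethasone 12 h arrays were lowest, and the other 4 lay above them. It differed from baseline by -0.46 (-0.87 to -0.05) after noise alone. Dexamethasone differed from saline by -0.64 (-1.06 to -0.23) at 12 h and by -0.06 at 24 h. The noise-only and dexamethasone 12 h arrays also had low marrow markers, with B cell medians of -1.26 against baseline and -1.12 against saline 12 h and proliferation medians of -1.13 and -0.88. The neutrophil sum of dexamethasone 12 h, 1030, was above the 901 of baseline. Yet 7 of 8 of these markers were lower than in saline 12 h (median -0.81). Bright genes weigh most in a sum, and Ltf stands in both the neutrophil and the mucosal gland list. Dexamethasone 24 h had the lowest proliferation sum, 20.5, while Pmaip1 differed by -0.06 from saline there. Their part in the Pmaip1 values was not tested.

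Bid, whose product links death receptors to mitochondria, read 0.03, -0.28, 0.01, -0.23, -0.02 and -0.30. The noise-only and both dexamethasone arrays were lowest, and no difference passed the spot error, with -0.31 (-0.71 to 0.09) after noise alone, -0.24 at 12 h and -0.28 at 24 h. Its range of 0.33 was reached by 85.6% of genes. Bad, which is held inactive by survival kinases, read 3.12, 3.07, 3.93, 3.55, 3.10 and 2.97. Both 12 h arrays were high and the other 4 were close together. Bad exceeded baseline by 0.81 (0.41 to 1.21) in saline 12 h, nearly the value of Bak1, and by -0.01 with spike-in scaling. Dexamethasone differed from saline by -0.38 (-0.78 to 0.02) at 12 h.

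Counts over the 10 genes stand beside those of all genes. After noise alone 2 of 10 were above baseline, against 47.8% of genes, with a median of -0.15 beside -0.014 for all genes, and 3 (Bax, Bbc3 and Pmaip1) were beyond the spot error, against 22.0% of genes. In saline 12 h 5 of 10 were higher, against 55.2%, with a median of 0.03 beside 0.062, and 4 were beyond the spot error, against 39.3% of genes. In saline 24 h 4 of 10 were higher, against 51.2%, the median was -0.03 beside 0.008, and 2 (Bax and Bbc3) were beyond the spot error, against 17.2%. With dexamethasone 5 of 10 were higher than in saline at 12 h and 3 of 10 at 24 h, against 47.1% and 49.2%. The medians were -0.08 beside -0.025 at 12 h and -0.11 beside -0.005 at 24 h, with 1 and 2 members beyond the spot error, against 22.8% and 18.2%. At least 2-fold apart were 0 of 10 in both, against 3.54% and 3.16% of genes.

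The one contrast with more than 1 array on a side was dexamethasone against saline over both times, fitted with limma on 4 arrays with time as a term. Of 24767 genes 0 passed an adjusted p of 0.05 (0% of genes), and 3635 (14.7%) had an unadjusted p under 0.05. With 1 residual degree of freedom, 0 calls do not show that no gene differed. Of the 10 members 1 had such a p. It was Bak1, with a difference of -0.34 (SE 0.12), lower with dexamethasone at both times, unadjusted p of 0.0357 and Benjamini-Hochberg adjusted p of 0.304 in limma. Bad and Bid followed with -0.26 each (limma adjusted p 0.424 and 0.43). Bax had 0.20 (SE 0.21, limma adjusted p 0.73), Bcl2 0.15 (SE 0.12, limma adjusted p 0.626) and Bcl2l11 -0.03 (SE 0.23, limma adjusted p 0.969). The 95% intervals of Bax (-0.36 to 0.76) and Bcl2l11 (-0.62 to 0.56) are wide, and their differences at 12 h and 24 h had opposite signs.

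Genes around the family were read from 8 lists of known partners and regulators. Further BCL-2 family genes, 13 of 16 measured, had medians of -0.06 after noise alone, 0.13 in saline 12 h and 0.05 in saline 24 h. With dexamethasone at 24 h, 10 of these 13 were lower than in saline, against 11541 of 22710 genes, with a median of -0.40. Of the 13, 6 were lower beyond the spot error, against 2165 of the 22710 genes. On the same pair of arrays the medians were -1.10 for proliferation markers, -0.98 for erythroid, -0.54 for neutrophil and -0.53 for T and NK cell markers. Not all marker lists were lower. B cell markers had a median of -0.10, macrophage -0.06, bone-forming cell 0.04, neuronal 0.61 and mucosal gland markers 0.91. Cerebellar (-1.51), epidermal (-0.91) and muscle markers (-0.65) were lower too. So were the cochlear markers of stria vascularis and spiral ligament (-0.54) and of supporting cells and tectorial membrane (-0.30). Hair cell markers had a median of -0.08 and Schwann cell markers 0.25. Among the 13 family genes the BH3-only gene Hrk differed by -0.67 (-1.09 to -0.25), Bcl2l14 by -0.73 and Bcl2l15 by -0.65. At 12 h 7 of 13 were lower, among them the protective gene Bcl2a1d (-0.57) and its near-identical copy Bcl2a1c (-0.79), which probes may not separate. Marrow markers were also lower there, 7 of 8 neutrophil markers with a median of -0.81 and 8 of 8 B cell markers with a median of -1.12. The part of these cells in either comparison was not tested. In limma Bcl2a1d had -0.60 (SE 0.12) over both times, with an adjusted p of 0.186, the lowest of the 101 list genes. The pore-forming Bok was 0.79 (0.39 to 1.19) above baseline in saline 12 h.

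Apoptosome and caspase genes, all 17 measured, stayed close to baseline after noise alone (7 higher, 10 lower, median -0.03). Apaf1, the scaffold of the apoptosome, differed by -0.68 (-1.11 to -0.25) and the caspase inhibitor Birc3 by -0.57. In saline 12 h the initiator caspase gene Casp9 differed by -0.81 and the nuclease gene Endog by 0.78, with a list median of -0.04. In saline 24 h 8 were higher and 9 lower. With dexamethasone the medians were -0.11 at both times. At 24 h 6 of 17 were higher and 11 lower, 3 and 2 of them beyond the spot error, and the nuclease gene Dffb differed by -0.50 (-0.97 to -0.03). Diablo, whose product frees caspases from inhibition, was 0.60 (0.20 to 1.00) higher and Cycs, the cytochrome c gene, 0.47 (0.07 to 0.87) higher.

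Death receptor genes had medians of -0.12, 0.20 and 0.02 against baseline and of -0.04 and 0.03 for dexamethasone. The ligand gene Tnfsf10 was 0.63 (0.23 to 1.04) above baseline after noise alone and 0.81 (0.41 to 1.21) in saline 24 h, and with dexamethasone at 24 h it was -0.85 (-1.25 to -0.45) from saline. The receptor gene Tnfrsf21 differed by -1.30 (-1.71 to -0.90) in saline 12 h.

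Trp53 and 15 further p53 targets, all measured, had medians of -0.01 after noise alone, 0.25 in saline 12 h and 0.02 in saline 24 h. After noise alone 8 were higher and 8 lower, with Perp at -0.56, Btg2 at -0.46 and Trp53 at -0.40 (-0.80 to 0.01). In saline 24 h Eda2r was 0.82 higher. With dexamethasone Cdkn1a, which encodes the cell cycle inhibitor p21, was higher at both times, by 0.47 (0.07 to 0.87) and 0.91 (0.51 to 1.31), with 0.69 (SE 0.15) and an adjusted p of 0.201 in limma. Zmat3 was 0.96 higher at 12 h.

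Of the FoxO, JNK and CHOP regulators of BH3-only genes, 6 of 10 were above baseline after noise alone (median 0.13). Trib3, a stress-induced pseudokinase gene, differed by 1.12 (0.72 to 1.52) and Ddit3, which encodes CHOP, by 0.52 (0.12 to 0.92). The medians were -0.16 in saline 12 h and 0.02 in saline 24 h, and the neuronal kinase gene Mapk10 was -1.07 from baseline in saline 12 h. With dexamethasone 9 of 10 were higher at 12 h (median 0.15) and 6 of 9 at 24 h (median 0.16). Neuronal markers were also lower in saline 12 h, 7 of 7 with a median of -1.16, and higher with dexamethasone, by medians of 0.40 and 0.61. Their part in the Mapk10 values was not tested.

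The BAD kinases, calcineurin and 14-3-3 genes, 16 of 16 measured, had medians of -0.02, -0.33 and -0.11 against baseline and of 0.09 and 0.11 with dexamethasone. Pim2, a kinase gene whose product phosphorylates BAD, was lower than baseline on each of the 3 arrays, by -0.67, -1.22 and -0.98. The 6 genes of MCL-1 turnover had medians of 0.07, -0.31 and -0.05, and 0.08 and 0.14 with dexamethasone. The deubiquitinase gene Usp9x was 0.79 (0.39 to 1.19) above baseline in saline 12 h. Spike-in scaling moved the median of all genes in that comparison from 0.062 to -0.756. The same shift applies to the saline 12 h values of Usp9x, Bok and Endog. The 11 mitochondrial and endoplasmic reticulum partners had medians of 0.02, -0.11 and 0.01, and 0.04 and 0.01 with dexamethasone. The calcium channel gene Itpr1 was 1.15 (0.75 to 1.55) higher after noise alone, on the array with the highest sum of cerebellar markers, whose part in it was not tested. In limma 0 of the 101 list genes passed an adjusted p of 0.05, and 14 had an unadjusted p under 0.05, next to 14.7% of all genes.

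**Figure D4:**
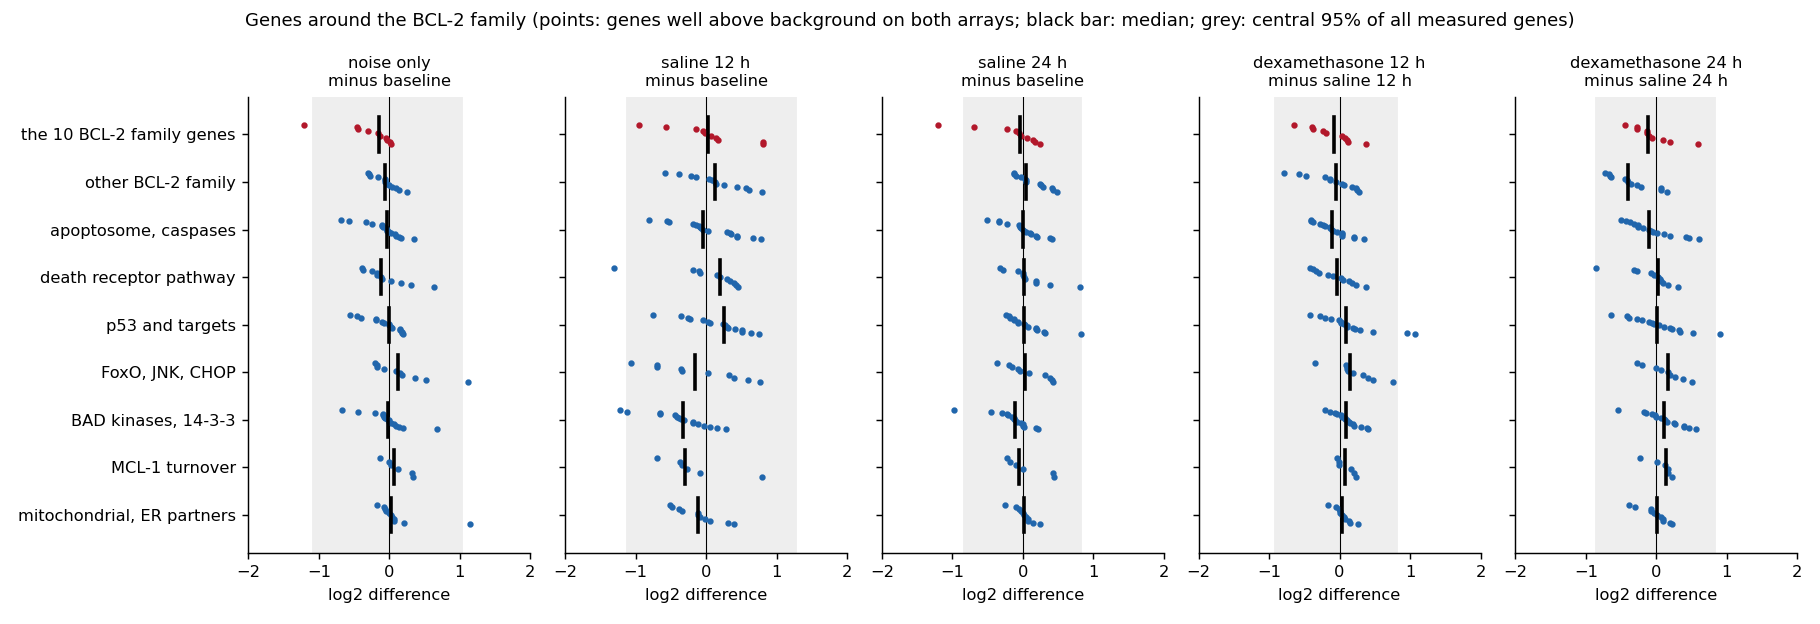
Log2 differences (horizontal axis) of single genes in the 10 BCL-2 family genes (red) and 8 lists of partners and regulators (blue) in the 5 comparisons (panels), with black bars for medians and grey for the central 95% of all measured genes. Most medians lie near 0, and the further BCL-2 family genes have a median of -0.40 with dexamethasone at 24 h.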

How the data were processed

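RNA of 6 groups was measured on 6 one-colour arrays, 1 per group, per the labels. The deposited scanner files hold intensity values, which the authors extracted with Agilent Feature Extraction 10.10.1.1, per the file headers, and probe positions on mm9. Log2 values in the deposited series matrix differed from log2 of the processed signal by 1 constant per array, within 0.001 for 100% of probes spotted once. Its column medians were -2.964 to -2.82.

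Spots marked as outliers were dropped, log2 of the processed signal was taken, the 75th percentile of an array's non-control probes (536.9 to 678.5 units) was subtracted, and spots of a probe were averaged. Through RefSeq accessions 32994 probes were named and 23611 kept the file's name. No member probe was renamed. A gene was measured when well above background on both arrays. The preset multiplicative spot error of 10% dominates the intervals, and 1 array a group sets the precision. Where 1 of both arrays was not above background, the fold was taken against the dimmest detected probe of that array or the probe itself, whichever was brighter. Such a fold leaves out the spot error.

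Dexamethasone over both times was fitted with limma 3.58.1 (lmFit, eBayes with trend) in R 4.3.3. Benjamini-Hochberg adjustment was over genes detected above background on 2 or more of 4 arrays. On data simulated with the spread that the fit itself had estimated, it recovered most 4-fold changes but few 2-fold ones, and made some false calls. Such data cannot show whether that spread suits these arrays. Slide is the time term in this fit. Named genes are all members, up to 3 of each list by size in a comparison, and the 3 genes most correlated with a member of at least 1 log2 unit of range, clone names left out. Members and lists were chosen with earlier results of these data known. Alternatives were other normalizations and background correction, the series matrix, other probe rules and filters, thresholds of 1.5-fold and 3-fold, other fits, and each array left out. Python 3.11.15, pandas 2.3.3, numpy 2.4.6 and matplotlib 3.10.9 were used.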

Additional observations from a re-analysis of the deposited data

Results flagged for a closer look

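The dexamethasone minus saline difference had opposite signs at 12 h and 24 h for 4 of the 10 genes, and these differences between times were not tested. For Bax it was -0.19 at 12 h and 0.59 at 24 h, which is 0.78 apart, more than the 0.57 that 1.96 spot errors of 4 arrays allow. For Bcl2l11 it was 0.38 and -0.44, or -0.83 apart, also beyond that width, although its probes disagreed in sign at 12 h. For Bbc3 it was 0.03 and -0.13, or -0.16 apart, and for Mcl1 0.12 and -0.10, or -0.21 apart, both within the spot error. Each time has 1 array per injection, and the times lie on different slides.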

How the results depend on the processing

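The Bax differences of -1.21 ran from -1.32 to -1.17 (noise only) and from -1.51 to -1.16 (saline 24 h) over 8 settings, and the 0.59 at 24 h from 0.49 to 0.62. Settings that only filter genes cannot change the value of a gene, and the series matrix differs from the processed signal by a constant per array. Such settings are no check on the size of a difference. Spike-in scaling moved the median of all genes to -0.119, -0.756, -0.291, 0.262 and -0.107 in the 5 comparisons (noise only, saline 12 h and saline 24 h against baseline, then dexamethasone at 12 h and 24 h), and the members' medians to -0.79 in saline 12 h, -0.334 in saline 24 h and 0.205 with dexamethasone at 12 h. Signs then turned for Bax, Bak1, Bbc3, Pmaip1 and Bad in saline 12 h, for Bak1, Bcl2l1, Bcl2l11 and Mcl1 in saline 24 h, for Bcl2l1 and Bcl2l11 after noise alone, for Bax and Bid with dexamethasone at 12 h and for Bcl2l1 at 24 h. The mean over probes turned signs for Bcl2l1 after noise alone, for Bax, Bcl2l1, Bcl2l11 and Bid in saline 12 h, for Bid in saline 24 h and for Bcl2l11 and Bid with dexamethasone at 12 h. Quantile normalization turned Mcl1 after noise alone.

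Genes at least 2-fold apart numbered 1406, 1903, 790, 857 and 718 in that order. They were 686, 984, 415, 393 and 353 with normexp and quantile normalization, 3457, 5470, 2896, 3612 and 2813 without the filter on dim probes, and 442, 646, 207, 193 and 197 among genes at or above the median signal. At 1.5-fold they were 3649, 6177, 2350, 3093 and 2521, and at 3-fold 399, 551, 265, 251 and 206. With spike-in scaling saline 12 h had 7677. Of these 2-fold genes, the share that was higher went with it from 45.4%, 56.3%, 50.1%, 47.0% and 51.7% to 35.3%, 2.89%, 21.0%, 81.6% and 38.2%, and quantile normalization gave 45.8% in saline 12 h.

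In limma 0 genes were called, but 548 with spike-in scaling, 951 without the filter on dim probes, and 0 to 21 when 1 array was left out together with the time term (21 without dexamethasone 12 h). Of members, signs turned for Bbc3 (0.04) and Bcl2l11 (0.061) with spike-in scaling and for Bid (0.19) with the mean over probes. Leaving out 1 array gave -0.441 to 0.836 for Bax, -0.672 to 0.161 for Bad, -0.55 to 0.446 for Bbc3, -0.25 to 0.55 for Bcl2, -0.018 to 0.18 for Bcl2l1, -0.434 to 0.372 for Bcl2l11 and -0.093 to 0.118 for Mcl1. The cause of these changes was not tested. No paired analysis was possible because each group has 1 array, apart from the time term in limma, which sets the arrays of a time against each other.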
